A study of Mus musculus with 16 samples.

Results

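Fgf21, Gdf15, Klb, Fgfr1, Fgfr2, Fgfr3 and Fgfr4 encode a pair of stress hormones, the co-receptor of the first and the 4 FGF receptors. They were taken by symbol from the deposited count tables and are 7 of 22322 gene identifiers. All 7 passed the filter on low counts in both tissues.

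The mice were made obese by diet (DIO) and received, by the intraperitoneal route, halofuginone at 100 μg/kg or vehicle every 2 days, with tissue taken after 8 weeks. Halofuginone is a plant-derived compound that inhibits prolyl-tRNA synthetase and so mimics a lack of proline. Liver was sequenced in 5 vehicle libraries (labelled HFD) and 5 halofuginone libraries (labelled H100), and white adipose tissue in 3 and 3. The groups thus share the obesity, and no lean group was analysed here. Strain, sex, age and fat depot are not given in the sources used here, nor whether each library came from a separate animal, so p-values measure the spread between these libraries, which may be technical.

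FGF21 is a hormone secreted mainly by the liver under fasting, protein restriction and cell stress. It acts on cells that carry both an FGF receptor, chiefly FGFR1, and beta-klotho, the product of Klb, and white fat is a classical target. GDF15 is a distant member of the TGF-beta family that many stressed cells release and that lowers food intake through GFRAL, a receptor of the hindbrain that signals with RET. In the liver, FGFR4 with beta-klotho receives the gut hormone FGF15 and restrains bile acid synthesis. The genes of both hormones are known targets of the integrated stress response, in which ATF4 and its partners bind amino acid response elements.

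Those elements make the upstream sequences of the genes with the largest drug effects worth showing. RefSeq promoter windows (GRCm38.p6, 250 bases before to 50 after a start) existed for 6 of the 7 genes, 8 windows in all, and Fgfr1 had none. Each window was searched on both strands for the core of the C/EBP-ATF response element, TGATGNAA, and for the cyclic AMP response element, TGACGTCA. One stretch cannot match both, since they differ at the fourth base. The 250 bases before the start of Fgf21, Gdf15 (the more upstream of its windows) and Klb are given 5′ to 3′ on the gene's strand, with a match to either motif in capitals.
Fgf21 (chr7:45615491-45615740, minus strand): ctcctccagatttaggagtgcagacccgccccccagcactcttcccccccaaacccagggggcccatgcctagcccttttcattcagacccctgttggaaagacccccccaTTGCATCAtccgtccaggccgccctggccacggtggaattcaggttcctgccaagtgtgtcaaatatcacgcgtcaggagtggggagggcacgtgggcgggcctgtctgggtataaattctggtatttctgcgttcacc
Gdf15 (chr8:70632457-70632706, minus strand): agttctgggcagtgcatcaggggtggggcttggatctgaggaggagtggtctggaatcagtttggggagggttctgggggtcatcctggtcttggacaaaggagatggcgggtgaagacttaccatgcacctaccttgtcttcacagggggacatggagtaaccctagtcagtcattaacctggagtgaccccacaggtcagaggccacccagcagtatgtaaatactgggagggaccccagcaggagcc
Klb (chr5:65348161-65348410, plus strand): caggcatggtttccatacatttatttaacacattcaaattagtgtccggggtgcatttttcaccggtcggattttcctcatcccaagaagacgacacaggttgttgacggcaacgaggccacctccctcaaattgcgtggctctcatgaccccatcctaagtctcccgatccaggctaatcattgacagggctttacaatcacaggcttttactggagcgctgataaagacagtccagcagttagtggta
Fgf21 held 1 match to the TGATGNAA core, read on the opposite strand and so printed as TTGCATCA, from base -139 to base -132 relative to the start. None of the other 7 windows held it, and none of the 8 held TGACGTCA. Of all 32851 promoter windows of the same length, 1304 (3.97%) held the first motif and 588 (1.79%) the second. A match describes letters only.

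Liver libraries held 20309956 to 31980683 counts and fat libraries 17070614 to 21387799. In liver, halofuginone replicate 1 stood nearer to vehicle than the other 4 treated libraries in several genes below, and values without it are given where they change a call or the sign of one of the 7 genes' changes. The hepatocyte markers (Alb, Apoa1, Ttr, Cyp2e1, Pck1 and Asgr1, all detected) were summed in CPM (each count divided by its scaled library total). The sums were 112347 to 122769 CPM in vehicle and 34497 to 105973 CPM under halofuginone, with the highest treated value in replicate 1. Alb weighs most in these sums, at a mean of 94154 CPM in vehicle and 51781 CPM in treated livers. In fat, vehicle replicate 3 stood apart. Its epididymis markers summed to 77.9 CPM against at most 10.5 CPM in the other 5 libraries, and its adipocyte markers (Adipoq, Plin1, Cidec, Lep and Fabp4) to 10626 CPM against 17056 to 20614 CPM. Macrophage markers (Adgre1, Cd68, Clec4f, Csf1r and Cd5l) summed to 1412 to 2185 CPM in vehicle fat and to 665 to 850 CPM in treated fat. Clec4f, a marker of Kupffer cells, was at or near 0 in fat. The part of these shifts in the results was not tested. In bulk tissue, fewer cells of a type and less RNA per cell cannot be told apart.

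The first comparison asked whether the drug changed the 7 genes in liver. Fgf21 and Klb rose, and the 5 others did not pass the threshold of an adjusted p of 0.05. The 2 calls among 7 genes compare with 23.2% of all 12311 genes tested (12.7% called higher), so the count alone is near the background. At an unadjusted p under 0.05 the count was 4 (Fgf21, Gdf15, Klb and Fgfr3), against 39.1%. In these 2 genes all treated livers lay above all vehicle livers, as in 5.13% of genes. The sizes differ: Fgf21 rose 7.51-fold and Klb 1.47-fold by edgeR's estimate.

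Fgf21 (ENSMUSG00000030827) stood at 9.43, 5.41, 17.1, 15.0 and 17.3 CPM in vehicle livers 1 to 5. Halofuginone livers 1 to 5 held 22.3, 48.6, 144, 147 and 121 CPM. Every treated liver lay above every vehicle liver, replicate 1 by the smallest margin, and replicates 3 to 5 formed the high end. The means were 12.9 ± 5.24 and 96.7 ± 57.6 CPM (SD, n = 5 each), a log2 change (log2 of the treated over the vehicle level) of 2.91 (SE 0.51, edgeR quasi-likelihood adjusted p 0.00617). Without treated replicate 1 it was 3.14 (edgeR adjusted p 0.000136). The hepatocyte marker Alb moved the other way, from a mean of 94154 to 51781 CPM with no overlap between the arms. Its log2 change was −0.86 (edgeR adjusted p 0.0742). The 6 hepatocyte markers were not alike: 5 were lower under halofuginone and 1, Pck1, was higher (0.25, edgeR adjusted p 0.398). Only Ttr was called (−1.17, edgeR adjusted p 0.0217), and Asgr1 was at −0.19 (edgeR adjusted p 0.299).

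Gdf15 (ENSMUSG00000038508) was at 3.52, 6.91, 14.9, 10.3 and 7.60 CPM in vehicle livers and at 10.9, 15.4, 22.6, 14.5 and 16.2 CPM in treated livers. The arms overlapped, because vehicle replicate 3 was above treated replicates 1 and 4. The means were 8.66 ± 4.26 and 15.9 ± 4.24 CPM (SD, n = 5 each), and the log2 change of 0.88 (SE 0.32) did not pass (edgeR adjusted p 0.0619, unadjusted p 0.0166). Single libraries decide that call. Without vehicle replicate 3 the log2 change was 1.15 (edgeR adjusted p 0.0278), and without treated replicate 1 it was 0.97 (edgeR adjusted p 0.0291).

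Klb (ENSMUSG00000029195), the co-receptor that makes a cell responsive to FGF21 and FGF15, was tightly spread in vehicle livers at 32.1, 33.9, 33.4, 28.2 and 36.6 CPM. Treated livers held 51.4, 39.7, 50.9, 57.4 and 42.4 CPM, all above the vehicle range. Treated replicate 1, low for Fgf21, was the second highest here. The means were 32.8 ± 3.08 and 48.4 ± 7.23 CPM (SD, n = 5 each), a log2 change of 0.56 (SE 0.11, edgeR adjusted p 0.0104). In 1 fit of all 16 libraries the adjusted p was 0.0554.

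**Figure D1:**
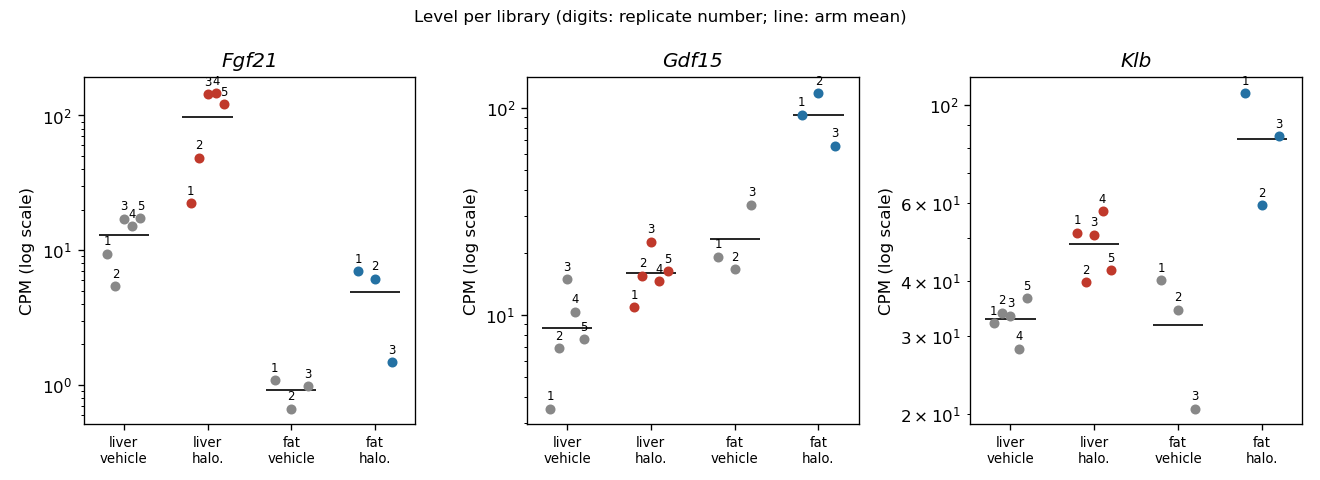
CPM (log scale, a separate axis per gene) of Fgf21, Gdf15 and Klb in each library; points are libraries labelled by replicate number, lines are arm means, grey is vehicle, red treated liver and blue treated fat. Treated libraries lie above all vehicle libraries of their tissue except for Gdf15 in liver, where 3 of 5 do.

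None of the receptor genes passed in liver with all libraries. Fgfr4 (ENSMUSG00000005320), the main hepatocyte receptor, was at 22.8, 21.8, 17.2, 29.2 and 24.0 CPM in vehicle and at 27.3, 17.4, 12.9, 16.6 and 9.05 CPM under halofuginone. Treated replicate 1 was the second highest of the 10 livers, and 3 of the other treated livers lay below the vehicle range. The log2 change was −0.47 (SE 0.25, edgeR adjusted p 0.184). Leaving out treated replicate 1 gave −0.74 (edgeR adjusted p 0.0108), which passes, and then 4 of the 7 genes were called (Fgf21, Klb, Gdf15 and Fgfr4). The all-gene count rises there too, from 2850 of 12311 genes to 5312 of 12422, so the count of 4 is again near the background.

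Fgfr3 (ENSMUSG00000054252) was at 12.4, 20.1, 13.2, 20.8 and 15.9 CPM in vehicle livers and at 13.9, 12.4, 12.2, 14.9 and 11.9 CPM in treated livers. The treated values were packed at the lower end of the vehicle range, with 2 of 5 below it. The log2 change was −0.34 (SE 0.15, edgeR unadjusted p 0.0491, adjusted p 0.126). Fgfr2 (ENSMUSG00000030849) was at 18.8, 19.0, 18.1, 22.0 and 23.9 CPM in vehicle and at 38.9, 19.0, 20.1, 17.4 and 22.5 CPM in treated livers. Only treated replicate 1 left the vehicle range upward, and the log2 change went from 0.21 (SE 0.20, edgeR adjusted p 0.475) to −0.07 without it. Fgfr1 (ENSMUSG00000031565), the receptor through which FGF21 acts on fat, was low in liver, at 4.85 to 8.21 CPM in vehicle (median 7.37) and 3.73 to 8.97 CPM in treated livers (median 6.56). Library size alone shifts the median over all liver genes from 0.02 to 0.17. The Fgfr1 log2 change of −0.06 (SE 0.22, edgeR adjusted p 0.867) had no stable sign: it was 0.10 with library size alone and 0.07 without treated replicate 1.

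The same question was put to white fat. No gene of the 14030 tested passed an adjusted p of 0.05 there with edgeR (0%), so none of the 7 did, and 1881 genes (13.4%) had an unadjusted p under 0.05. Among the 7, Fgf21, Gdf15 and Klb had an unadjusted p under 0.05, each with the treated libraries higher (5.5% of all genes). The same 3 had treated libraries above all vehicle libraries, as did 10.2% of all genes. DESeq2 called 723 genes in fat, these 3 among them, and 1 edgeR fit of all 16 libraries called 334 genes, Gdf15 and Klb among them.

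Gdf15 had the lowest unadjusted p of the 3 in fat. It stood at 19.1, 16.6 and 34.0 CPM in vehicle fat 1 to 3 and at 92.5, 118 and 65.6 CPM in treated fat. The lowest treated library was above the highest vehicle library, vehicle replicate 3. The means were 23.2 ± 9.42 and 92.0 ± 26.1 CPM (SD, n = 3 each), a log2 change of 1.99 (SE 0.34, edgeR unadjusted p 0.000724, adjusted p 0.130). Without vehicle replicate 3, in which epididymis markers were high, it was 2.37 (edgeR adjusted p 0.132).

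Klb was at 40.2, 34.5 and 20.6 CPM in vehicle fat and at 106, 59.3 and 84.8 CPM in treated fat. Vehicle replicate 3, with the low adipocyte markers, was the lowest library, and the arms did not overlap. The means were 31.7 ± 10.1 and 83.5 ± 23.5 CPM (SD, n = 3 each), a log2 change of 1.39 (SE 0.31, edgeR unadjusted p 0.00315, adjusted p 0.173). It was 1.16 without vehicle replicate 3 (edgeR adjusted p 0.225).

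Fgf21 was scarce in fat. Vehicle libraries held 18, 12 and 17 counts (1.08, 0.666 and 0.981 CPM) and treated libraries 124, 132 and 28 counts (7.02, 6.13 and 1.47 CPM). Treated replicate 3 was close to vehicle and the other 2 were several times higher. The log2 change was 2.42 (SE 0.63, edgeR unadjusted p 0.00656, adjusted p 0.212), and 2.87 without treated replicate 3 (edgeR adjusted p 0.153).

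The receptors gave no unadjusted p under 0.05 in fat. Fgfr1, the abundant receptor of adipocytes, was at 278, 306 and 242 CPM in vehicle and at 252, 215 and 220 CPM in treated fat. The arms overlapped by 1 treated library, with a log2 change of −0.27 (SE 0.16, edgeR adjusted p 0.530). Fgfr2 was at 5.82, 12.2 and 6.98 CPM against 6.68, 4.97 and 10.2 CPM (log2 change −0.20, SE 0.39). Fgfr3 was at 13.7, 11.6 and 2.71 CPM against 10.4, 11.6 and 14.5 CPM. The low value belongs to vehicle replicate 3, and the log2 change of 0.38 (SE 0.54) became −0.06 without that library. Fgfr4 held 2, 111 and 41 counts in vehicle fat and 0, 4 and 53 counts in treated fat, so each arm held a library under the floor of 3 counts (0.139 to 0.180 CPM in fat) and another with 41 counts or more. Its log2 change of −1.54 (SE 1.61) is not separated from 0 and rests on single libraries, being −4.75 without treated replicate 3 and −0.32 without vehicle replicate 2 (edgeR adjusted p 0.327 and 0.957).

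**Figure D2:**
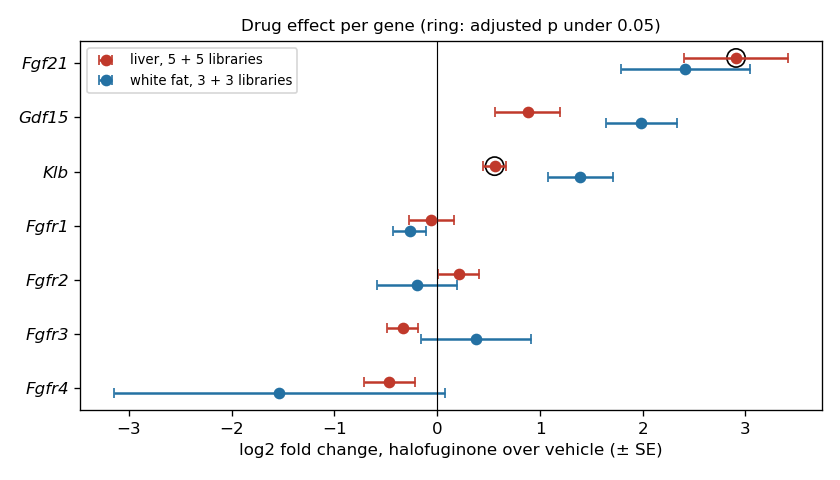
Log2 change of halofuginone over vehicle (x axis, edgeR, bars are 1 SE) for the 7 genes in liver (red) and white fat (blue); a ring marks an adjusted p under 0.05. Only Fgf21 (2.91) and Klb (0.56) in liver carry a ring, and Fgfr4 in fat has the widest bar (SE 1.61).

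The effects in fat and liver were compared with each other in 1 fit. None of the 7 differences passed, against 0.949% of 14853 genes. Klb and Gdf15 had an unadjusted p under 0.05, as did 15.7% of all genes. The effect on Gdf15 in fat exceeded that in liver by 1.08 on the log2 scale (SE 0.50, edgeR unadjusted p 0.0466, adjusted p 0.309). For Klb the excess in fat was 0.82 (SE 0.31, edgeR unadjusted p 0.0168, adjusted p 0.205). For Fgf21 the difference of −0.52 (SE 0.95, edgeR adjusted p 0.858) was smaller than its error. The receptors' differences were −0.23 for Fgfr1, −0.42 for Fgfr2, 0.69 for Fgfr3 and −1.10 for Fgfr4 (edgeR adjusted p 0.536 to 0.789).

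Levels of the genes can be compared with each other only per length, and the deposited FPKM (fragments scaled by length and depth) serve for that. In vehicle liver Fgf21 came first at 12.9 ± 5.30 FPKM, followed by Klb at 8.92 ± 0.708, Fgfr4 at 6.58 ± 1.43, Fgfr2 at 6.58 ± 1.10, Fgfr3 at 6.34 ± 1.91 and Gdf15 at 5.67 ± 2.75, with Fgfr1 last at 1.93 ± 0.481 FPKM (SD, n = 5). Each gene overlapped its neighbour in that order. In treated liver Fgf21 reached 109 ± 66.6 FPKM and was clear of the second gene, Klb at 14.5 ± 2.23 FPKM. Gdf15 (11.9 ± 4.17 FPKM) had moved from the sixth to the third place, and Fgfr1 (2.22 ± 0.356 FPKM) lay below all others without overlap.

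Fat had another order. Fgfr1 led in vehicle fat at 73.0 ± 10.5 FPKM, above Gdf15 at 15.3 ± 5.84 and Klb at 8.94 ± 2.88 FPKM (SD, n = 3), and these 3 did not overlap with their neighbours. Fgfr3 (3.33 ± 2.40) overlapped Fgfr2 (2.66 ± 1.24), and Fgf21 (0.930 ± 0.203) overlapped Fgfr4 (0.863 ± 0.935 FPKM). In treated fat Gdf15 (64.4 ± 17.4 FPKM) overlapped Fgfr1 (63.9 ± 3.88 FPKM) at the top. Klb followed at 24.5 ± 7.30 FPKM and Fgf21 at 5.22 ± 3.18 FPKM, level with Fgfr3 (4.20 ± 0.847 FPKM).

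Between vehicle tissues, 6 of the 7 genes differed by edgeR's test, against 72.3% of all genes. Fgfr1 was higher in fat by 4.17 on the log2 scale (SE 0.23, edgeR adjusted p 1.85e-10). Fgf21 was lower in fat by a log2 difference of −4.96 (SE 0.76, edgeR adjusted p 2.35e-05), and Fgfr4, Fgfr2 and Fgfr3 by −4.11, −2.42 and −1.95 (edgeR adjusted p 5.07e-06 to 0.000410). Gdf15 did not differ by that test (0.27, SE 0.36, edgeR adjusted p 0.503). Klb was called lower in fat (−1.19, SE 0.23, edgeR adjusted p 0.000202), but this rests on the scaling. With library size alone the difference was 0.01, while the median over all genes moved from 0.18 to 1.36, and its FPKM of 8.92 in liver and 8.94 in fat were level. With limma on log2 FPKM (pseudocount 1) Klb was at −0.04 and lost its call (limma adjusted p 0.854). The log2 differences of 4 other genes shrank by over 1.5 times in that setting. Fgf21 was at −2.74, Fgfr4 at −2.13, Fgfr2 at −1.09 and Fgfr3 at −0.93, each still past the threshold (limma adjusted p at most 0.0132). Library size alone put Fgfr1 at 5.36 and brought Fgfr3 to −0.76 (edgeR adjusted p 0.0560) and Gdf15 to 1.46 (edgeR adjusted p 0.00141). Limma on log2 FPKM also called Gdf15 higher in fat, at 1.33 with a pseudocount of 1 (limma adjusted p 0.00166). Gdf15 kept that call with a pseudocount of 0.1 (limma adjusted p 0.00174). Its mean FPKM were 5.67 in vehicle liver and 15.3 in vehicle fat, so its call depends on the setting.

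Each receptor's share of the summed FPKM of the 4 receptors shows the make-up of the receptor pool. In vehicle liver Fgfr2 (30.9 ± 3.72%), Fgfr4 (30.6 ± 3.78%) and Fgfr3 (29.3 ± 5.76%) held shares close together and Fgfr1 9.25 ± 2.91% (SD, n = 5). In treated liver the shares were 36.8 ± 6.28% for Fgfr2, 28.2 ± 5.87% for Fgfr3, 24.3 ± 5.83% for Fgfr4 and 10.7 ± 2.41% for Fgfr1. The largest difference was that of Fgfr4, of −6.36 percentage points (exact permutation test, two-sided, p = 0.0794, adjusted over 8 shares 0.444). Treated liver 5 had the lowest Fgfr4 share, 15.3%, and treated liver 1 the highest Fgfr2 share, 45.0%. In fat Fgfr1 made up 91.7 ± 2.84% of the pool in vehicle and 90.1 ± 2.91% in treated libraries (SD, n = 3; exact permutation p = 0.600, where 3 against 3 cannot go below 0.1). None of the 8 shares passed (exact permutation, adjusted p 0.444 to 0.810). With Klb added to the sum, the Fgfr1 difference in fat went from −1.65 to −15.3 points (exact permutation, adjusted p 0.296). That of Fgfr3 in liver went from −1.03 to −4.11 and that of Fgfr2 in liver from 5.93 to 0.33. Klb was higher in treated fat (24.5 against 8.94 FPKM) and treated liver (14.5 against 8.92 FPKM). Its place in the sum therefore lowers the treated shares whatever the receptors do.

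**Figure D3:**
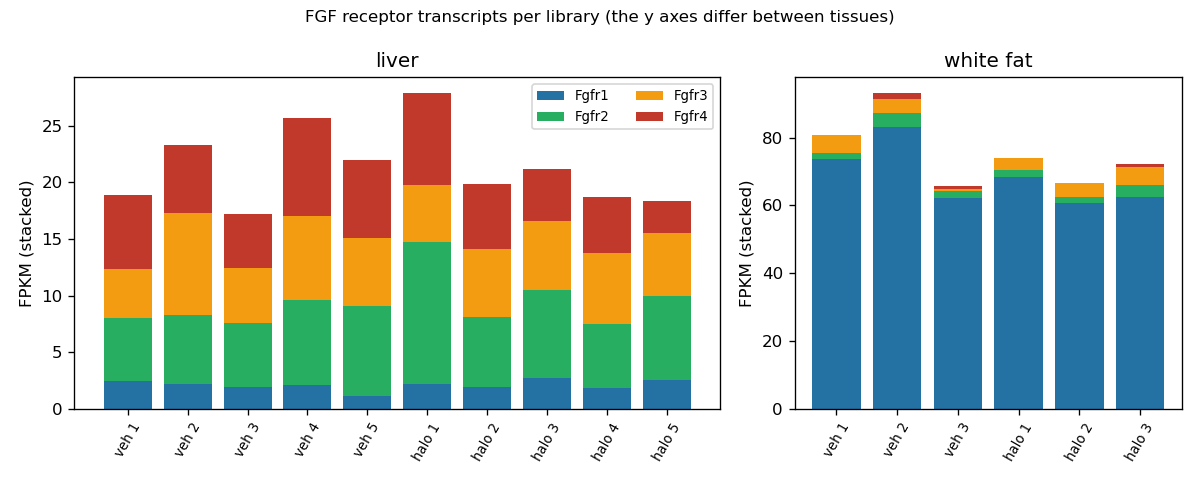
Stacked FPKM of Fgfr1 to Fgfr4 in each liver (left) and fat library (right), vehicle first; the y axes differ between tissues. Liver sums lie between 17.2 and 27.9 FPKM and are split among Fgfr2, Fgfr3 and Fgfr4, while fat sums of 65.6 to 93.2 FPKM are mostly Fgfr1.

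Counts and FPKM of a gene together give the length by which the authors' values were divided. That length was 951 bases for Fgf21 in liver, with a ratio of 1.00 between the highest and the lowest liver library, and 3322 to 3328 bases for Fgfr4 in liver. For Fgfr1 it ran from 1726 bases in treated liver 1 to 4059 bases in vehicle liver 5, a ratio of 2.35, against 3553 to 3784 bases in fat. Of 9516 genes with at least 50 counts in every liver library, 4.07% had a ratio above 1.5, and the median ratio was 1.04. Treated liver 1 had the fewest Fgfr1 counts of the livers (75) and yet an FPKM of 2.14, near the arm's mean. Fgfr3 had a ratio of 1.37 in liver, and in vehicle fat 3 its length was 3986 bases, on 47 counts. FPKM levels and shares of Fgfr1 in liver thus carry this length as well as the reads. This property was singled out after the values were seen.

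**Figure D4:**
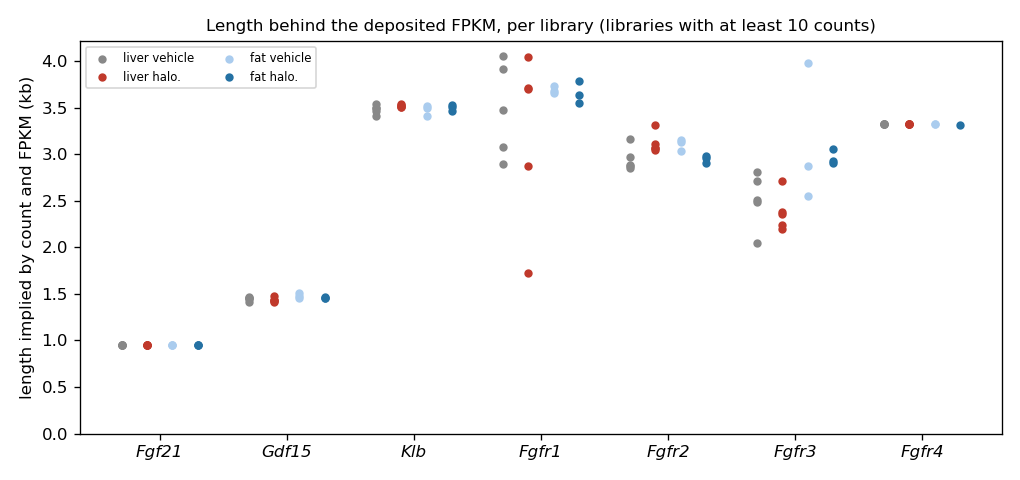
Length in kilobases implied by the deposited count and FPKM of each gene in each library with at least 10 counts, coloured by tissue and arm. Fgf21 and Fgfr4 are near constant, while Fgfr1 in liver spreads from 1.73 to 4.06 kb.

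The genes known to drive Fgf21 and Gdf15 were described as a list of 15 transcription regulators. In liver 5 were called higher and 2 lower, against 12.7% and 10.5% of all genes, with a median log2 change of 0.26 against 0.02 over all genes. The largest rises were in Ddit3, the stress factor CHOP (2.81, SE 0.59, edgeR adjusted p 0.0105), in Atf3 (2.57, SE 0.69, edgeR adjusted p 0.0243), in Atf5 (2.16, SE 0.34, edgeR adjusted p 0.00410) and in Rora, a nuclear receptor (1.09, SE 0.18, edgeR adjusted p 0.00483). Atf4, the central factor of the integrated stress response, rose by 0.77 (SE 0.20, edgeR adjusted p 0.0220), and by 0.90 without treated liver 1. Cebpb and Ppargc1a fell by 0.32 and by 0.92 (edgeR adjusted p 0.0430 and 0.0492). DESeq2 called both as well, but 1 edgeR fit of all 16 libraries and limma on log2 FPKM called neither. The calls of Atf3 and Atf4 were lost without any 1 of 6 livers (vehicle 1, 2, 4 and 5, treated 3 and 5) and any 1 of 5 (vehicle 1, 2 and 4, treated 3 and 5), at edgeR adjusted p values of at most 0.0613 and 0.0568, and those of Ddit3, Atf5 and Rora were kept without each of the 10.

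Treated liver 1 departed from the other treated livers in these regulators more than in Klb. Its Ddit3 was 3.73 CPM, below every vehicle liver, where treated livers 2 to 5 held 43.5 to 71.0 CPM, and its Atf4 was 65.0 CPM within the vehicle range of 56.8 to 85.9 CPM. In the same library Fgf21 (22.3 CPM) and Klb (51.4 CPM) were above all vehicle livers. So were the regulators Atf5 (161 CPM, vehicle at most 141 CPM) and Rora, and Asns (6.71 CPM, vehicle at most 1.35 CPM), Trib3 and Sesn2. Of 6 ATF4 targets kept for comparison, 4 were called higher in liver, against 12.7% of all genes. In 3 of the 6 all treated livers lay above vehicle. Those 4 were Asns (6.80), Trib3 (5.78), Nupr1 (5.50) and Sesn2 (1.81 on the log2 scale, edgeR adjusted p at most 0.00374). The first 3 values are above the 2.91 of Fgf21 and that of Sesn2 is below it.

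In fat edgeR called none of the 15 regulators. An unadjusted p under 0.05 was found for 6, each with the treated libraries higher, against 5.5% of all genes. DESeq2 called 3 of the 15, against 723 of 14030 genes: Ddit3 (adjusted p 1.02e-08), Atf5 (adjusted p 7.79e-09) and Atf4 (adjusted p 0.00218). In 1 edgeR fit of all 16 libraries, Atf5 (adjusted p 0.0224) and Atf4 (adjusted p 0.0435) were called, against 334 of 14853 genes. The largest differences without overlap were those of Ddit3 (2.36), Atf5 (2.01) and Atf4 (1.15, edgeR adjusted p 0.0954 to 0.173). Atf4 stood at 144, 165 and 157 CPM in vehicle and 403, 406 and 221 CPM in treated fat, so that treated replicate 3 was lowest for Atf4 as for Fgf21. Atf3, called higher in liver, had the opposite sign in fat, at 189 ± 107 CPM in vehicle and 94.5 ± 34.8 CPM in treated libraries (SD, n = 3 each; log2 change −0.999, SE 0.44, edgeR unadjusted p 0.0599, adjusted p 0.394). Of its 3 treated libraries 2 lay below the vehicle range. Cebpb and Ppargc1a, called lower in liver, also had the opposite sign in fat. Each was at 0.80 (edgeR unadjusted p 0.0242 and 0.0799, adjusted p 0.304 and 0.427). Of the 6 ATF4 targets edgeR called none and DESeq2 5, against the same 723 of 14030 genes. Trib3 (3.45), Asns (2.12) and Sesn2 (1.30) gave the largest values among the targets whose arms did not overlap (edgeR adjusted p 0.116 to 0.210).

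**Figure D5:**
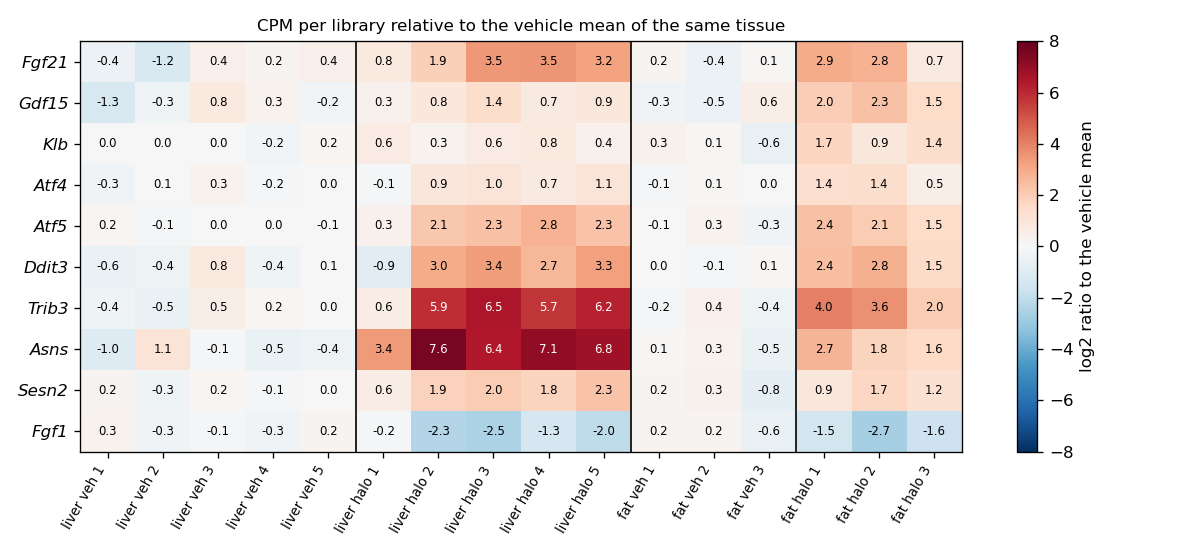
Log2 ratio of each library's CPM to the vehicle mean of its tissue for the hormones, Klb, stress-response genes and Fgf1 (rows, chosen after the values were seen) in all 16 libraries (columns), red higher and blue lower. Treated liver 1 is at −0.89 for Ddit3, −0.11 for Atf4, 0.34 for Atf5, 0.79 for Fgf21 and 0.65 for Klb. The same library is at 3.38 for Asns, 0.58 for Trib3 and 0.57 for Sesn2. Treated fat 3 is at 0.70 for Fgf21.

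Among the other FGF ligands, Fgf1 was lower in treated liver where Fgf21 was higher. Of 9, 2 passed the filter in liver and 6 in fat. Fgf1, a paracrine ligand of all 4 receptors, fell in liver by 1.40 on the log2 scale (SE 0.41, edgeR adjusted p 0.0316). It was at 209, 141, 161, 138 and 198 CPM in vehicle and at 150, 33.6, 28.9, 68.0 and 41.1 CPM in treated livers, with only treated replicate 1 inside the vehicle range. Without that library it fell by 2.00 (edgeR adjusted p 0.000160), and without any 1 of the 9 others the call was lost (edgeR adjusted p 0.0506 to 0.0761). In fat, Fgf1 was at 92.0, 94.8 and 54.8 CPM against 28.7, 12.8 and 26.1 CPM (log2 change −1.84, SE 0.36, edgeR adjusted p 0.156, DESeq2 adjusted p 0.000267). Fgf2 (−0.84) and Fgf18 (−1.21) also had treated fat below all vehicle libraries, without an adjusted p under 0.05. Fgf15, the gut ligand of FGFR4, had 0 counts in every liver.

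Of 7 other genes of the receptor complex, 2 were tested in liver and 6 in fat, and edgeR called none in either tissue. In fat Lctl, a klotho relative, had the lowest adjusted p of that list, at 114 ± 26.3 CPM in vehicle and 35.9 ± 7.65 CPM in treated libraries (SD, n = 3; log2 change −1.67, SE 0.24, edgeR adjusted p 0.0954), the only one there with an unadjusted p under 0.05. DESeq2 called it (adjusted p 3.91e-07), as did 1 edgeR fit of all 16 libraries (adjusted p 0.0192). The arms did not overlap, so Klb and its relative gave values of opposite sign in the same libraries.

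Behind the receptors, the 17 relay genes all passed the filter. In liver 1 was called higher and 2 lower, against 12.7% and 10.5% of all genes, so the count alone is near the background. Map2k1, the kinase MEK1, fell by 0.40 (SE 0.08, edgeR adjusted p 0.00803) and Mapk3, the kinase ERK1, fell by 0.43 (SE 0.11, edgeR adjusted p 0.0220). In both all 5 treated livers lay below vehicle, as in 806 of 12311 genes. Frs3, a receptor docking protein near 1 CPM, rose by 0.87 (SE 0.23, edgeR adjusted p 0.0231). The calls of Mapk3 and Frs3 were lost without any 1 of 3 (vehicle 4, treated 3 and 5) and any 1 of 6 livers (vehicle 1, 3 and 5, treated 3, 4 and 5), with an edgeR adjusted p of at most 0.0629. With library size alone Mapk3 was at −0.29 (edgeR adjusted p 0.0674), and without treated liver 1 it fell by 0.55. The median over the 17 was −0.03, against 0.02 over all genes. In fat none was called by edgeR, DESeq2 or limma, and 1 had an edgeR unadjusted p under 0.05, against 13.4% of all genes. Mapk3 (−0.40), Cbl (−0.31) and Map2k2 (−0.25) had treated libraries below vehicle, as did 1455 of 14030 genes.

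A further list held genes that ERK signalling induces. Of 14 tested in liver, 1 was called, against 23.2% of all genes. That gene, Dusp5, an ERK phosphatase at 1.51 ± 0.654 CPM in vehicle, fell by 1.09 (SE 0.33, edgeR adjusted p 0.0376). Its call was lost without any 1 of vehicle 2, 3 and 4 and treated 3, 4 and 5 (edgeR adjusted p at most 0.0917). Dusp6 (37.9 and 38.1 CPM, log2 change 0.01 with a sign that changes with the scaling) and Spry4 (0.29, SE 0.38) did not pass. In fat edgeR called none of 14, and 4 had an unadjusted p under 0.05, against 13.4% of all genes. DESeq2 called 3, against 723 of 14030 genes: Spry4 (adjusted p 0.000249), Dusp5 (adjusted p 0.00369) and Ier2, which was named after its call was seen. Spry4, a feedback inhibitor of receptor signalling, was at 23.5, 33.3 and 19.6 CPM in vehicle and at 54.3, 59.6 and 55.7 CPM in treated fat. That is a log2 change of 1.15 (SE 0.22, edgeR unadjusted p 0.00117, adjusted p 0.156) with no overlap. Dusp5 differed the other way (−1.17, SE 0.26, edgeR adjusted p 0.173), Ier3 was higher by 0.81 (edgeR adjusted p 0.328) and Dusp6 by 0.25 (edgeR adjusted p 0.547).

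Among the bile acid genes listed as hepatic targets of FGFR4, Cyp7a1 fell by 2.30 (SE 0.67, edgeR adjusted p 0.0321). Cyp7a1 encodes the rate-limiting enzyme of bile acid synthesis, which FGFR4 signalling represses. Whether that signalling had a part in the values below was not tested. Vehicle livers held 98.9, 120, 32.3, 107 and 144 CPM and treated livers 61.3, 3.02, 11.1, 9.26 and 17.8 CPM. Treated replicate 1 alone overlapped vehicle. The call was lost without any 1 of 7 libraries, all but vehicle 3 and treated 1 and 2 (edgeR adjusted p 0.0552 to 0.0804), and without treated replicate 1 the gene fell by 3.30 (edgeR adjusted p 0.000601). Cyp27a1 fell by 0.81 (SE 0.25, edgeR adjusted p 0.0389, lost without any 1 of the 9 libraries other than treated 1, without which it fell by 1.15). Cyp8b1 had a log2 change of −2.57 that narrowly missed the threshold in the main fit (edgeR adjusted p 0.0511). DESeq2, 1 edgeR fit of all 16 libraries and limma on log2 FPKM called Cyp8b1. Nr0b2, the repressor SHP, was at 0.22 (edgeR adjusted p 0.669). In fat Cyp7a1 had 0 counts.

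The GDF15 receptor gene Gfral had 0 counts in all 16 libraries, where a count of 0 allows at most 0.0983 to 0.180 CPM. Its co-receptor Ret was at 0 in most livers but at 48.1, 60.1 and 26.5 CPM in vehicle fat and 28.7, 12.4 and 19.1 CPM in treated fat (log2 change −1.16, SE 0.40, edgeR adjusted p 0.301). Fap, a protease that inactivates FGF21, was near 0 in liver. In fat it stood at 8.87, 7.99 and 14.3 CPM in vehicle and at 4.42, 4.83 and 4.58 CPM in treated libraries, with no overlap (log2 change −1.17, SE 0.28, edgeR unadjusted p 0.00440, adjusted p 0.191, DESeq2 adjusted p 0.0115). Furin, a protease that matures secreted hormones, was at 209 and 207 CPM in liver and at 107 and 104 CPM in fat, and its fold changes of −0.01 and −0.03 (log2) turn sign with library size alone (0.14 and 0.03). Among adipose genes known to respond to FGF21, none of 3 tested was called in fat by edgeR (0 at an unadjusted p under 0.05), DESeq2 or limma. All 3 had a negative log2 change there, as did 6849 of 14030 genes. Their median was −0.49, against 0.01 over all genes. In liver 1 of that list was tested, and it rose: Slc2a1, the glucose transporter GLUT1, by 0.54 (SE 0.11, edgeR adjusted p 0.0105). In 1 fit of all 16 libraries its edgeR adjusted p was 0.0690.

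Across the 10 livers the genes most like Fgf21 by Pearson's r of log2 CPM, among 8816 genes, were Noc2l (0.97), Pfn1 (0.97), Rpl10-ps3 (0.97), Ddx52 (0.97) and Upf3a (0.97), and their r of deviations from the arm means was 0.90 to 0.96. Over the 6 fat libraries Upf3a (0.94) was high again, and Pfn1 (0.23) was not. For Gdf15 they were Tmem115 (0.95), Chtf8 (0.92), Fam168b (0.92), Nop56 (0.92) and Hacd1 (0.91), of which Nop56 reached 0.97 in fat. For Klb they were Mllt10 (0.98), Setd1b (0.97) and Vamp3 (0.95), and for Fgfr4 Dennd1a (0.98), Elmo3 (0.98) and Tjp3 (0.96). These are the highest of many values over libraries that share their arms and are descriptions only. Among the 7 genes, Fgf21 and Gdf15 had an r of 0.78 over the 10 livers and 0.53 within arms.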

How the data were processed

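Poly(A)-selected mouse RNA was sequenced. Per the submitters' processing notes the tools included fastp 0.18.0, Bowtie2 2.2.8, HISAT2, StringTie 1.3.1 and RSEM, with the build mm39. Per the file headers, the authors deposited whole-number counts and FPKM per gene. Since 1 to 31 genes per library combine a zero count with a nonzero FPKM, those counts could be rounded estimates. Each tissue was fitted by the quasi-likelihood test of edgeR 4.0.16 (R 4.3.3) with filterByExpr, TMM scaling and Benjamini-Hochberg adjustment over all genes. Differences between tissues came from 1 fit of all 16 libraries, taken as independent. CPM are counts over TMM-scaled library size. A count of 0 allows up to 3 counts, for counting error only. The labels give no batch. Deviations from the group means of same-numbered vehicle liver and vehicle fat libraries had correlations of 0.103, 0.128 and 0.226, each over 0.1, and a blocked fit was added. Differently numbered libraries were not correlated, and fat replicate 1 of the 2 arms also exceeded 0.1 (0.111). These values therefore cannot show whether the numbers pair libraries. No replicate pair was alike within sampling noise (chi-square per degree of freedom at least 29.7). Members and lists were chosen with earlier results of these data known. Genes were named by a rule: all 7 members, in each list the called genes of liver (at most 4 of the largest changes) and the non-overlapping genes of fat (at most 3, from 1 CPM), a fixed set, and the genes most like a member. Cebpb, Ppargc1a, Cyp8b1, Fgf15, Alb and Clec4f were named after their values were seen. Alternatives were scaling by library size alone or by DESeq2 size factors, the DESeq2 1.42.0 test, other filters, robust dispersion, limma 3.58.1 on log2 FPKM (pseudocount 1 or 0.1), a replicate block, 1 fit of all libraries and leaving out each library. The liver and fat fits were also run on simulated counts with large changes and no outlying library. That run does not cover small changes or libraries such as treated liver 1.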

Additional observations from a re-analysis of the deposited data

Results flagged for a closer look

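Within groups of 5 livers, 5 of 64 gene groups held a library far from the others (gap to the nearest library over the whole range above 0.71), where chance gives about 3.2. A receptor was among them: Fgfr2 in treated liver 1 was 38.9 CPM, with 22.5 CPM in the next library. The same library held 61.3 CPM of Cyp7a1 (next 17.8 CPM). Vehicle liver 4 was the highest vehicle library for Mapk3 (38.4 CPM, next 33.3 CPM) and for Slc2a1 (8.36 CPM, next 7.18 CPM). Vehicle liver 2 held 1.35 CPM of Asns (next 0.606 CPM).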

How the results depend on the processing

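Over 81 results and 1502 alternative values, 1370 kept their direction and side of the threshold, 61 lost a call, 33 gained one and 38 changed sign; the cause of the changes was not tested. Fgf21 in liver kept its call in all of its alternatives. Gdf15 in liver passed with library size alone (1.06), DESeq2 (0.87) and limma on FPKM (1.00 with a pseudocount of 1, 1.14 with 0.1), and ran from 0.68 to 1.15 without single libraries. Klb in liver missed the threshold in 1 fit of all libraries (0.56), which left 1 member called, and without single libraries 2 to 4 were called. In fat, DESeq2 called Fgf21 (2.43), Gdf15 (1.99) and Klb (1.40), 3 members, and 1 fit of all libraries called Gdf15 (1.97) and Klb (1.38), 2 members. All genes called numbered 2850 in liver, 3627 with library size alone, 3641 with DESeq2, 1901 with the replicate block and 1275 to 5312 without single libraries. In fat they numbered 0, or 723 with DESeq2, 334 in 1 fit and 17 with limma (pseudocount 1).

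The deviations of same-numbered libraries of the 2 arms had correlations of −0.16 to 0.057 in liver and −0.57 to 0.11 in fat. Those of liver and fat were −0.13 to 0.059 under halofuginone and 0.10 to 0.23 in vehicle. With no differently numbered pairs beside them, these values cannot show whether the numbers pair libraries. A block by arm and number, chosen after seeing the data, changed no call of the vehicle tissue comparison (6 members called, Fgf21 at −4.59 and Klb at −1.26). With the number as a replicate block Gdf15 in liver was 0.98 and passed (edgeR adjusted p 0.0209), and Dusp6 in liver was −0.032. The block by arm and number turned the Fgfr1 difference between drug effects to 0.24.

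Values near 0 changed sign. In liver, library size alone and limma (pseudocounts 1 and 0.1) gave 0.10, 0.14 and 0.21 for Fgfr1 and 0.14, 0.15 and 0.15 for Furin. DESeq2 and its size factors gave −0.00293 and −0.00296 for Dusp6. In fat the 3 former gave 0.030, 0.051 and 0.053 for Furin. Without single libraries the liver ranges were −0.19 to 0.068 (Fgfr1), −0.067 to 0.29 (Fgfr2), −0.077 to 0.025 (Furin) and −0.077 to 0.13 (Dusp6). Those of fat were −0.49 to 0.19 (Fgfr2), −0.058 to 0.77 (Fgfr3) and −0.075 to 0.053 (Furin). The Fgfr4 difference between tissues ran from −4.30 to 0.15, and the vehicle difference of Gdf15 from −0.084 to 0.55. That of Klb was 0.0061 with library size alone. With Klb in the sum, the share differences that changed sign were −0.18 points for Fgfr1 in liver and −0.32 for Fgfr2 in fat. Larger shifts that kept their sign included Fgfr1 in fat (−15.3 points) and Fgfr2 in liver (0.33 points). Without single libraries the share differences of the receptors alone ran from −2.60 to 1.48 (Fgfr3, liver), −2.92 to 0.011 (Fgfr1, fat) and −0.42 to 0.83 points (Fgfr2, fat). Depth limits Fgf21 and Fgfr4 in fat, where single libraries held 12 and 0 counts.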
